A study of Homo sapiens with 7 samples.

Results

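A set of 9 transcription factors that act beside TP63 and SOX2 in squamous epithelium were examined across all 7 RNA-Seq libraries of the series: KLF4, KLF5, GRHL2, GRHL3, TFAP2A, TFAP2C, ZNF750, OVOL1 and RUNX1. They were chosen by name, and all 9 were measured, among 56237 genes with at least 1 quantified transcript. The libraries came from TE5 and KYSE140, which are established cell lines of esophageal squamous cell carcinoma grown in DMEM with fetal bovine serum and antibiotics. All 7 cell populations carried a short hairpin RNA (shRNA) from a lentiviral pLKO.1 vector. TE5 had 1 library each with a non-targeting scramble shRNA, shTP63, shSOX2 and shCCAT1, and KYSE140 had 1 library each with scramble, shTP63 and shSOX2. CCAT1 is a long non-coding RNA. The study describes a pair of TP63 hairpins, one against all isoforms and one against ΔNp63α, and the labels do not tell which of them was sequenced. With 1 library per condition and line, a comparison within a line had no replicate check, and only the lines served as replicates where both were fitted together.

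Squamous epithelium renews from basal cells, which TP63 and SOX2 maintain, and its daughter cells leave the basal layer and build a barrier. The factors described here act at different steps of that path. KLF5, TFAP2A, TFAP2C and RUNX1 are known for roles in basal and proliferating keratinocytes, GRHL2 maintains epithelial junction genes, and KLF4, GRHL3, OVOL1 and ZNF750 promote terminal differentiation. ZNF750 is itself a known target of TP63 in keratinocytes and induces KLF4. Whether each of the 9 moved with the loss of TP63, SOX2 or CCAT1 is the question that these libraries address.

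The libraries held 68532611 to 98036494 estimated counts each. TP63 fell by 1.94 on the log2 scale upon TP63 silencing over both lines (SE 0.14, edgeR adjusted p = 0.0302), with TPM (a transcript level scaled for length and library size) of 127 in TE5 scramble against 33.6 in shTP63, and 194 against 49 in KYSE140. SOX2 in the shSOX2 libraries was 36 against 96.7 TPM in TE5 and 134 against 198 TPM in KYSE140. On counts scaled between libraries, in place of TPM, its log2 fold change was -1.37 in TE5 and -0.39 in KYSE140. Over both lines its fitted log2 fold change upon SOX2 silencing was -0.90 (SE 0.22, edgeR adjusted p = 0.289), so edgeR did not call the silenced gene itself. CCAT1 in TE5 was 4.94 TPM in scramble and 1.62 TPM in shCCAT1. Of 12 markers of squamous epithelium, 11 exceeded 1 TPM in every library, and their summed level was 14200 to 32700 TPM in KYSE140 and 2080 to 2910 TPM in TE5. KRT14, the exception, was at or below 0.546 TPM in the TE5 libraries. Summed markers reached at most 37.3 TPM for columnar epithelium, 71.5 TPM for fibroblast, 9.65 TPM for endothelium and 124 TPM for immune cells. The last value was the TE5 shTP63 library, where CD68 gave 116 TPM while PTPRC, the pan-leukocyte marker, was at most 0.236 TPM. By line, the columnar sum was 23.4 to 37.3 TPM in TE5 and 3.41 to 4 TPM in KYSE140. The fibroblast sum was 13.9 to 27.5 TPM in TE5 and 55.4 to 71.5 TPM in KYSE140. In each line the silenced libraries came from 1 sequencing lane and the scramble library from another, so lane and silencing cannot be told apart in comparisons with scramble. A comparison of shTP63 with shSOX2 lies within 1 lane.

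RefSeq promoter windows of 300 bases (250 before and 50 after a start, GRCh38.p14) were matched for 5 of the 9 genes, in 8 windows, and were searched for 6 motifs on both strands: a KLF box (CCACACCC), a GRHL site (AACCGGTT), a TFAP2 palindrome (GCCNNNGGC), a RUNX core (TGTGGT), a SOX core (ACAAT) and the p53-family core pair without spacer. Among 35116 windows of all genes, 3.28% held the KLF box, 0.134% the GRHL site, 23.2% the TFAP2 palindrome, 13.1% the RUNX core, 27.4% the SOX core and 0.0171% the p53-family pair. The TFAP2 palindrome occurred in 1 of 2 GRHL3 windows, in the KLF4 window and at 2 places in the RUNX1 window, and the SOX core in both GRHL3 windows, 1 of 2 TFAP2A windows and 1 of 2 KLF5 windows. None of the 8 windows held the KLF box, GRHL site, RUNX core or p53-family pair as searched. The 250 bases before the start are given for 4 windows, because the levels or start sites of these genes differed between the lines; each matches 1 place in GRCh37, the build of the files, with no annotated exon in it. Capitals mark a match to any of the motifs.
GRHL3, chr1:24645597-24645846, plus strand, SOX core in capitals: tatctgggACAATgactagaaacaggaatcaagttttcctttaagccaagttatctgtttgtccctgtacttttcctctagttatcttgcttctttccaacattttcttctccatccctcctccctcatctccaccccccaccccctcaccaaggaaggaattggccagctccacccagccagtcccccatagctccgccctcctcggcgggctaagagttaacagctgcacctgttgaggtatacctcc
TFAP2A, chr6:10419893-10420142, minus strand, upstream start, no match: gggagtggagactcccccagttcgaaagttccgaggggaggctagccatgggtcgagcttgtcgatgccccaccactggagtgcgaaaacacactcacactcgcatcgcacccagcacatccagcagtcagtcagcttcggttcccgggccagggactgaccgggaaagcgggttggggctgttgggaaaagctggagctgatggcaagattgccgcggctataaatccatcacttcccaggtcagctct
KLF4, chr9:110252051-110252300, minus strand, TFAP2 palindrome in capitals: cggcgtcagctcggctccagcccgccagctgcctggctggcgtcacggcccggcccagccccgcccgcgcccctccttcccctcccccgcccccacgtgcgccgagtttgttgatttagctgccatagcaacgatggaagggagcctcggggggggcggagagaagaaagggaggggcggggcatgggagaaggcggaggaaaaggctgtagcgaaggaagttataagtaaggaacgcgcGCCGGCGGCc
RUNX1, chr21:36260997-36261246, minus strand, proximal start, TFAP2 palindromes in capitals: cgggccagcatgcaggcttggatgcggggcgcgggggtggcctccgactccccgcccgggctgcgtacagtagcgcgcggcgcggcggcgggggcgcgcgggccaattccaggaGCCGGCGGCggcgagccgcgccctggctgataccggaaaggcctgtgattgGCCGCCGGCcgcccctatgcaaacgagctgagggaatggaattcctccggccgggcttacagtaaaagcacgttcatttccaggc

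KLF4 (ENSG00000136826) lies on hg19 chromosome 9, 110247133 to 110252763, minus strand, and KLF5 (ENSG00000102554) on chromosome 13, 73629114 to 73651679, plus strand. GRHL2 (ENSG00000083307) lies on chromosome 8, 102504667 to 102681954, plus strand, and GRHL3 (ENSG00000158055) on chromosome 1, 24526048 to 24690972, plus strand. TFAP2A (ENSG00000137203) occupies chromosome 6, 10393419 to 10419892, minus strand, and TFAP2C (ENSG00000087510) chromosome 20, 55204362 to 55214339, plus strand. ZNF750 (ENSG00000141579) occupies chromosome 17, 80787310 to 80797898, minus strand, and OVOL1 (ENSG00000172818) chromosome 11, 65554534 to 65564685, plus strand. RUNX1 (ENSG00000159216) spans chromosome 21, 36160098 to 37376965, minus strand.

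All 9 factors were expressed in every library. On the TPM scale, which corrects for transcript length and so allows a comparison between genes, KLF5 was the highest of the 9 in both scramble libraries, with 108 TPM in TE5 and 98.8 TPM in KYSE140. ZNF750 was the lowest in both, with 3.07 and 6.35 TPM. In TE5 scramble the order from KLF5 was TFAP2A (50.1 TPM), GRHL2 (44 TPM), KLF4 (33 TPM), RUNX1 (27.3 TPM), TFAP2C (25.9 TPM), OVOL1 (12.5 TPM), GRHL3 (8.41 TPM) and ZNF750. The order in KYSE140 scramble was TFAP2A (82.7 TPM), GRHL3 (62.8 TPM), KLF4 (59.7 TPM), TFAP2C (32.8 TPM), GRHL2 (22.2 TPM), RUNX1 (17.7 TPM), OVOL1 (15.7 TPM) and ZNF750 after KLF5. GRHL3 was thus next to last in TE5 scramble and the third in KYSE140 scramble. Its rank in KYSE140 rests in part on ENST00000524724, a transcript of 494 bases. In KYSE140 scramble this transcript held 35.2% of GRHL3 TPM (22.1 TPM) from 6.67% of its counts. Neighbours in these orders overlapped over the libraries of a line. In KYSE140, GRHL3 (46 to 62.8 TPM) stood above KLF4 (58.9 to 65.9 TPM) in scramble and below it in shTP63 and shSOX2. In TE5, the ranges of TFAP2A (30.6 to 50.1 TPM), GRHL2 (44 to 65.3 TPM) and KLF4 (26.8 to 68.5 TPM) overlapped, and so did those of RUNX1 (24.5 to 27.3 TPM) and TFAP2C (25.9 to 44.8 TPM). RUNX1 varied least across the TE5 libraries, by 1.11-fold from the lowest to the highest, and ZNF750 varied most in KYSE140, by 3.56-fold.

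**Figure D1:**
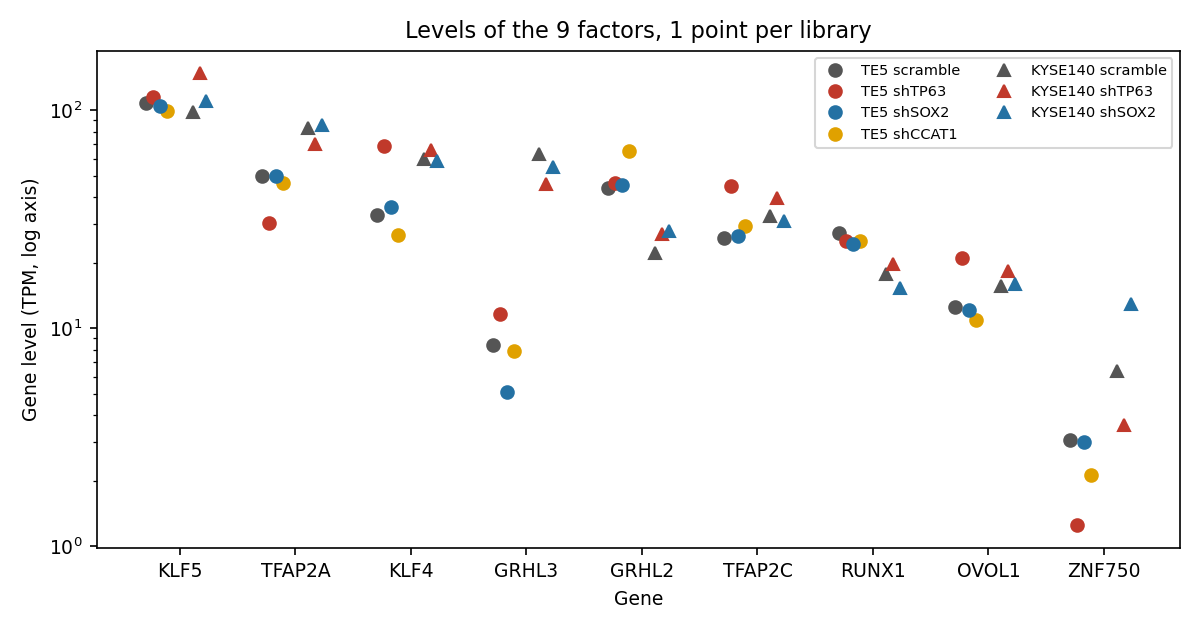
Levels of the 9 factors in TPM on a log axis, 1 point per library, with circles for TE5, triangles for KYSE140 and colours for the shRNA. GRHL3 is separated by line (5.11 to 11.6 TPM in TE5, 46 to 62.8 TPM in KYSE140), and ZNF750 has its lowest point of each line in shTP63.

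The lines differed in most of these factors. On counts scaled by TMM (a trimmed mean that sets libraries on 1 scale; normalized counts hereafter), GRHL3, which promotes barrier formation, gave 821 in TE5 scramble, 1337 in shTP63, 398 in shSOX2 and 598 in shCCAT1, and 6973, 5717 and 6454 in KYSE140 scramble, shTP63 and shSOX2. Its ranges did not overlap, and its log2 difference of TE5 from KYSE140 was -3.04 (SE 0.34, 3 libraries per line, edgeR adjusted p = 0.000221). The 3 libraries of a line carry different shRNAs and are not independent replicates of the line. ZNF750, which represses basal genes and induces late differentiation, was lower in TE5 by a log2 difference of -1.94 (SE 0.21, edgeR adjusted p = 0.000186), and TFAP2A, an AP-2 factor of the basal layer, by -1.28 (SE 0.14, edgeR adjusted p = 0.000165). KLF4 was also lower in TE5, with a log2 difference of -0.84, OVOL1, a zinc finger repressor of mesenchymal genes, with -0.65, KLF5 with -0.56 and TFAP2C with -0.35. GRHL2, which keeps junction genes active, was the only one higher in TE5, with a log2 difference of 0.62 (SE 0.13, edgeR adjusted p = 0.00481), and its 11305, 10955, 11384 and 13381 normalized counts in TE5 scramble, shTP63, shSOX2 and shCCAT1 lay above 6336, 6892 and 9134 in KYSE140. Without its main transcript ENST00000251808, which only the gene tables of the study place, the difference of GRHL2 was -0.05 (edgeR adjusted p = 0.846). The TFAP2A and GRHL3 differences also include transcripts placed by their neighbours in the file. ENST00000379604 held 17.6% to 45.5% of TFAP2A counts in KYSE140 and 0.126% to 16.4% in TE5. ENST00000342072 held 35.4% to 46.3% of GRHL3 counts in KYSE140 and 0% to 52.6% in TE5. RUNX1 did not pass the test, with a log2 difference of 0.00 (SE 0.12). Hence 7 of the 9 were lower and 1 higher in TE5, where edgeR called 32.1% of 23511 genes lower and 34.8% higher, so a called difference between these lines was common among all genes. TFAP2C lost its call under 7 of 13 alternatives, among them library totals in place of TMM (log2 difference -0.14, adjusted p = 0.43) and DESeq2 (adjusted p = 0.103). In TPM the levels of KLF5 overlapped between the lines (99.7 to 115 TPM in TE5 and 98.8 to 148 TPM in KYSE140). These levels include a short KLF5 transcript with few counts, given below.

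Upon TP63 silencing, ZNF750 and TFAP2A were lower in both lines. ZNF750 had 456 normalized counts in TE5 scramble and 181 in shTP63, a log2 fold change of -1.33 (95% counting interval -1.56 to -1.10), and 1272 and 708 in KYSE140, a log2 fold change of -0.84 (-0.98 to -0.71). TFAP2A had 4951 and 2624 in TE5 (log2 fold change -0.92, -0.98 to -0.85) and 10458 and 8200 in KYSE140 (-0.35, -0.40 to -0.31). These intervals hold counting error only. KLF4, a differentiation factor of the suprabasal layers, stood at 4510 normalized counts in TE5 scramble and 8199 in shTP63, a log2 fold change of 0.86 (0.81 to 0.91), whereas KYSE140 gave 9711 and 10246 (0.08, 0.03 to 0.12). TFAP2C, a close paralog of TFAP2A, was higher in shTP63 of both lines, with log2 fold changes of 0.78 in TE5 and 0.27 in KYSE140, and so was OVOL1, with 0.55 and 0.17. GRHL3 was higher in TE5 shTP63 (log2 fold change 0.70, 0.58 to 0.82) and lower in KYSE140 shTP63 (-0.29, -0.34 to -0.23). KLF5 had log2 fold changes of -0.22 in TE5 and 0.40 in KYSE140, RUNX1 of -0.09 and 0.26, and GRHL2 of -0.05 and 0.12. In the same TE5 shTP63 library the marker sums were 124 against 73.4 TPM in scramble for immune cells, 9.65 against 2.9 TPM for endothelium (CDH5 8.36 against 1.7 TPM) and 27.5 against 15.5 TPM for fibroblast, and their part in the TE5 values was not tested. SOX2 was also lower in TE5 shTP63 (70.7 against 96.7 TPM, log2 fold change -0.60) and not in KYSE140 shTP63 (206 against 198 TPM, 0.03), and its part was not tested either.

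In TE5 shTP63, ZNF750 alone of the 9 passed a log2 fold change of 1 (doubling or halving), on the lower side, where 5.5% of 24481 genes were past it downwards and 14.6% upwards. No factor passed it in KYSE140 shTP63, where 4.21% of 21923 genes were past it downwards and 8.47% upwards. Fitted over both lines, 0 of the 9 passed an adjusted p of 0.1 in edgeR, where 0.978% of all genes fell and 0.272% rose. At an unadjusted p under 0.05 edgeR gave 3 of the 9: ZNF750 (log2 fold change -1.09, SE 0.26, adjusted p = 0.132), TFAP2A (-0.61, SE 0.17, adjusted p = 0.176) and TFAP2C (0.55, SE 0.18, adjusted p = 0.228). At that unadjusted threshold 1979 of 23511 genes fell and 1479 rose. DESeq2 on the same libraries called ZNF750 (adjusted p = 0.00382) and TFAP2A (adjusted p = 0.028), 2 of the 9. Over all genes DESeq2 called more than edgeR, 1353 of 39009 lower and 497 higher. With transcripts that lack a gene kept as features, edgeR called no gene at all upon TP63 silencing, 0 of 26043, in place of 230 lower and 64 higher of 23511. TFAP2A in KYSE140 shTP63 rests on a transcript that was placed by its neighbours in the file, ENST00000379604, without which its log2 fold change there was 0.25.

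**Figure D2:**
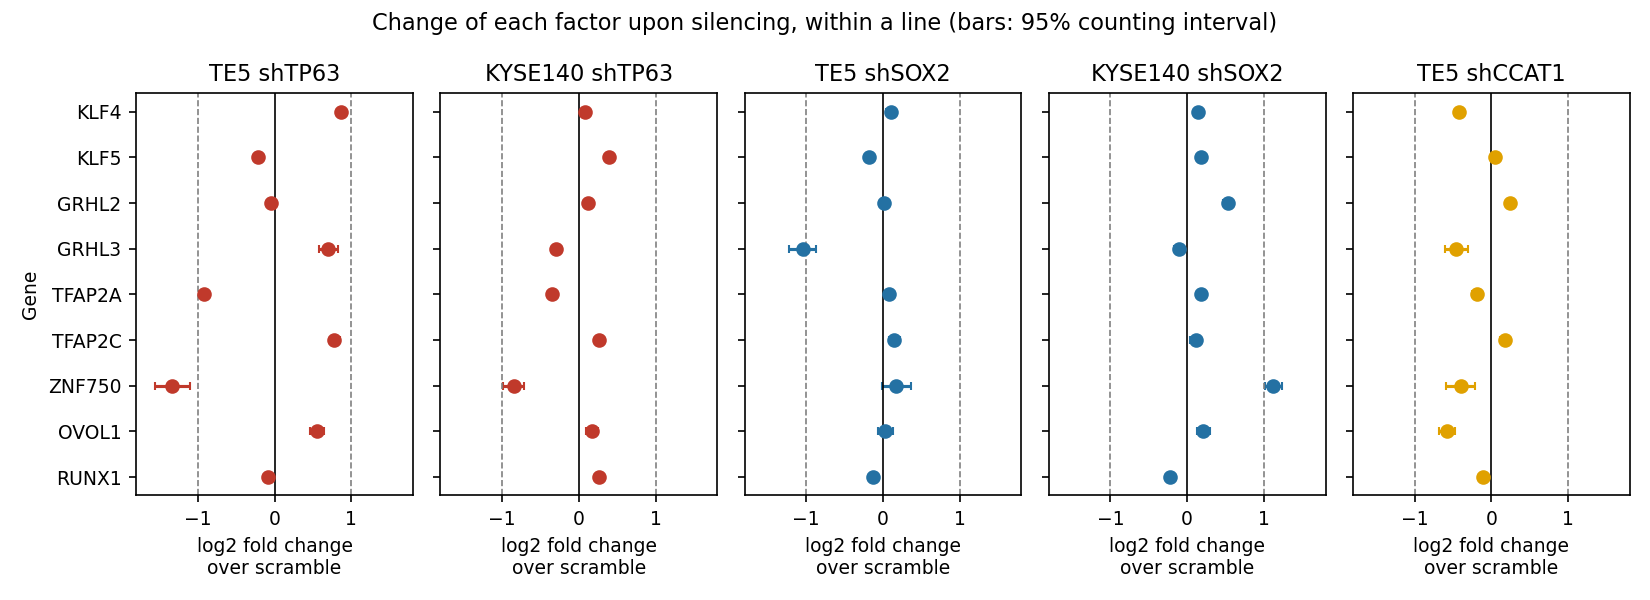
Log2 fold change of each factor over the scramble library of its line, in 5 panels by line and shRNA, with 95% counting intervals and dashed lines at -1 and 1. ZNF750 passes -1 in TE5 shTP63 and 1 in KYSE140 shSOX2, and GRHL3 passes -1 in TE5 shSOX2.

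Upon SOX2 silencing, ZNF750 and GRHL3 stood out, each in 1 line. ZNF750 had 1272 normalized counts in KYSE140 scramble and 2769 in shSOX2, a log2 fold change of 1.12 (1.01 to 1.23), and 456 and 514 in TE5 (0.17, -0.01 to 0.36). GRHL3 had 821 and 398 in TE5 (log2 fold change -1.04, -1.22 to -0.87) and 6973 and 6454 in KYSE140 (-0.11, -0.17 to -0.06). GRHL2 was next in KYSE140, with 6336 and 9134 normalized counts and a log2 fold change of 0.53, against 0.01 in TE5. The other 8 factors in TE5 lay between -0.18 and 0.17. In TE5 shSOX2, 4.76% of genes were past -1 and 6.17% past 1, and in KYSE140 shSOX2, 6.27% and 6.72%. GRHL3 in TE5 did not pass -1 in TPM (8.41 and 5.11 TPM). Of this TPM, its short transcript ENST00000524724 held 28.9% in scramble and 41.8% in shSOX2, from 5.43% and 9.82% of counts. Over both lines edgeR called 0 of the 9, where 0.145% of genes fell and 0.0383% rose, and only ZNF750 had an unadjusted p under 0.05 (log2 fold change 0.64, SE 0.25, adjusted p = 0.508). At that unadjusted threshold 1260 of 23511 genes fell and 919 rose. DESeq2 also called 0. SOX2 itself was not called by edgeR over both lines and was less reduced in KYSE140 than in TE5, as given above. The part of this difference in the values by line was not tested.

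Set against each other within a lane, TP63 and SOX2 silencing differed for ZNF750 and TFAP2A. The ZNF750 log2 ratio of shTP63 over shSOX2 was -1.50 (95% counting interval -1.72 to -1.28) in TE5 and -1.97 (-2.08 to -1.85) in KYSE140. Over both lines it was -1.73 (SE 0.26, edgeR adjusted p = 0.032), and it remained called under all 13 alternatives, with adjusted p from 1.91e-07 to 0.0936. The counting interval of TFAP2A was -1.06 to -0.93 in TE5 and -0.58 to -0.49 in KYSE140, and its log2 ratio was -0.73 over both (SE 0.17, edgeR adjusted p = 0.0802), a call that was lost under 7 of the 13 alternatives, with adjusted p up to 0.309. Both factors were lower in shTP63 than in shSOX2 in 2 of 2 lines. edgeR called 2.8% of all genes lower and 2.16% higher in this comparison, against 2 and 0 of the 9; with library totals in place of TMM it called 426 genes lower and 741 higher in place of 658 and 508. None of the other 7 passed: TFAP2C was higher in both lines (0.64 in TE5 and 0.17 in KYSE140, edgeR adjusted p = 0.252), and GRHL3 was higher in TE5 only (1.74 against -0.17 in KYSE140, adjusted p = 0.35). KLF4 (0.76 and -0.07), OVOL1 (0.52 and -0.05) and KLF5 (-0.04 and 0.23) likewise had opposite signs in TE5 and KYSE140. Without the KYSE140 shTP63 library, 1 shTP63 library remains and the fit describes TE5: the log2 ratio was 0.75 for KLF4, 1.48 for GRHL3 and 0.65 for TFAP2C. Both transcripts of ZNF750 shared the direction: ENST00000269394 had 0.851 TPM in TE5 shTP63 and 2.19 in shSOX2, and 2.87 and 9.38 in KYSE140, and ENST00000572562 had 0.4 and 0.818, and 0.752 and 3.57. Of the 31-base words in ZNF750 transcripts, 6.3% also occur in transcripts of other genes, chiefly TBCD on the opposite strand, which had 6530 and 6490 normalized counts in TE5 shTP63 and shSOX2, and 10207 and 8626 in KYSE140.

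**Figure D3:**
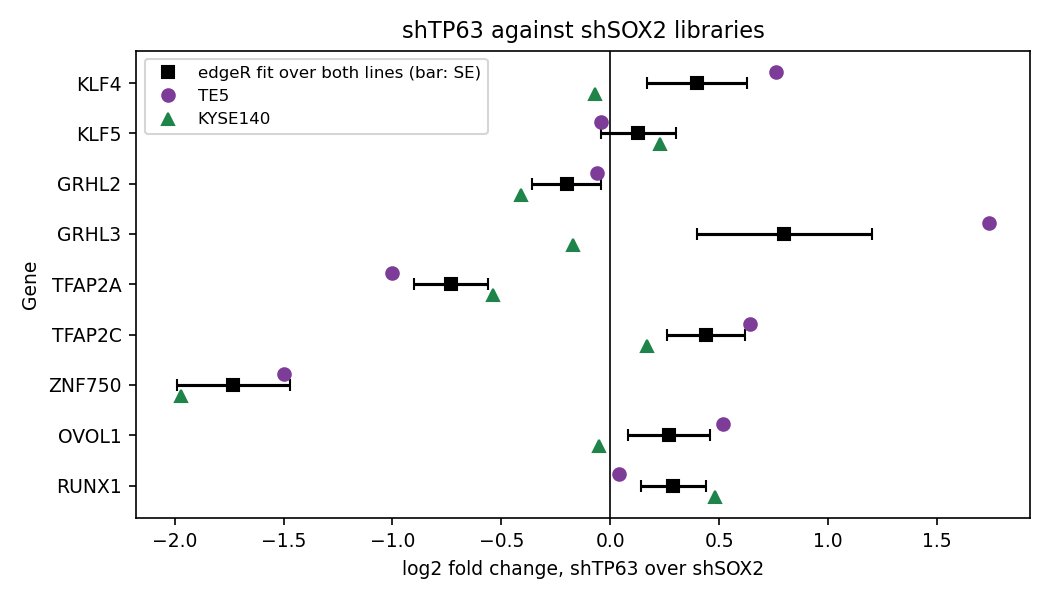
Log2 ratio of shTP63 over shSOX2 for each factor, with circles for TE5, triangles for KYSE140 and squares for the edgeR fit over both lines (bars are 1 SE). Points of both lines lie below 0 for ZNF750 and TFAP2A (and, closer to 0, GRHL2), and on opposite sides for GRHL3, KLF4, KLF5 and OVOL1.

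CCAT1 silencing was measured in TE5 alone, with 1 library and so no test. Of the 9 factors, 6 were lower in shCCAT1 and 3 were higher, with none past a log2 fold change of 1, where 5.81% of 24184 genes were past it downwards and 11.7% upwards. OVOL1 was lowest, with 1670 normalized counts in scramble and 1116 in shCCAT1 (log2 fold change -0.58), followed by GRHL3 (-0.46, -0.60 to -0.31), KLF4 (-0.42) and ZNF750 (346 against 456 normalized counts, -0.40, -0.59 to -0.21). In TPM, GRHL3 was 8.41 in scramble and 7.88 in shCCAT1, of which the short transcript ENST00000524724 held 28.9% and 42.8%. Without ENST00000342072, a GRHL3 transcript placed by its neighbours in the file, the log2 fold change of GRHL3 was -1.53. GRHL2 was the highest, with a log2 fold change of 0.24, and TFAP2C gave 0.18, KLF5 0.05, RUNX1 -0.11 and TFAP2A -0.19. The median of the 9 was -0.19 and that of all genes 0.02. Each of the TE5 comparisons shares the scramble library.

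Start sites separated the lines for RUNX1, whose total count gave no call between them. RUNX1, the DNA-binding partner of CBFB, is transcribed from a distal and a proximal promoter, and the protein forms differ at their amino end. The 5 annotated transcripts with distal starts (chromosome 21, 36421567 to 36421641) took 16.9% of RUNX1 counts in TE5 scramble (95% Wilson interval 16 to 17.8), 16.8% in shTP63, 16.1% in shSOX2 and 16.9% in shCCAT1. In KYSE140 they took 0.499% in scramble (0.33 to 0.754), 0.126% in shTP63 and 0.515% in shSOX2. These were 913 to 1307 of 5675 to 7798 counts in TE5 and 10 to 22 of 4275 to 7945 in KYSE140. Among these 5, the transcripts ENST00000416754, ENST00000437180 and ENST00000455571 were listed at 0 TPM in all 3 KYSE140 libraries and at 0.649 to 2.76 TPM in the 4 TE5 libraries. Starts at the proximal promoter, whose sequence is given above, made up 81.9% to 82.7% in TE5 and 98.5% to 99.3% in KYSE140. The ranges of the lines did not overlap, and within TE5 the 4 Wilson intervals did. TFAP2A showed the opposite pattern: its most upstream start group (10419787 to 10419892), which the printed window precedes, took 8.8% to 13.9% of its counts in KYSE140 and 0.837% to 3.99% in TE5, with the highest TE5 share in shTP63. ENST00000379604, which has no start in the annotation used and so belongs to no start group, took 45.5%, 17.6% and 22.8% of TFAP2A counts in KYSE140 scramble, shTP63 and shSOX2, and 0.126% to 16.4% in TE5. ENST00000319516 of this gene was listed at 0 TPM in 3 of 4 TE5 libraries and at 5.31 to 11.6 TPM in KYSE140. Shares of transcripts come from a likelihood estimate by Kallisto, so the intervals understate their error, and 15.1% of TFAP2A words are shared, mainly with its antisense genes.

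**Figure D4:**
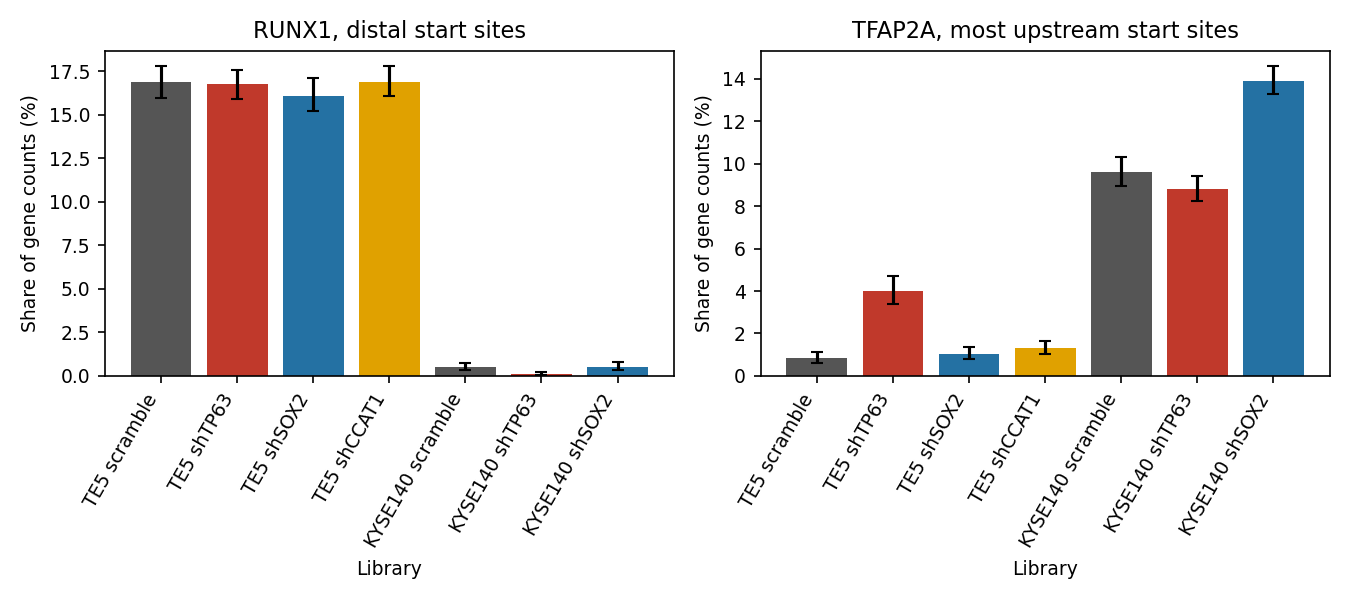
Share of the estimated counts of RUNX1 from its distal starts, and of TFAP2A from its most upstream starts, in percent by library, with 95% Wilson intervals as bars. RUNX1 distal starts give 16.1% to 16.9% in the 4 TE5 libraries and at most 0.515% in KYSE140, and TFAP2A is higher in KYSE140.

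Transcripts with a retained intron made up a large part of KLF4, 48.5% of its TPM in TE5 scramble, 57.5% to 58.5% in the 3 silenced TE5 libraries, and 29.6% to 37.5% in KYSE140. The coding transcript ENST00000374672 of KLF4 was 16.8 TPM in TE5 scramble and 28.3 TPM in shTP63, and 40.5 and 41.1 TPM in KYSE140, so the contrast between the lines held for the coding transcript. KLF5 came mostly from ENST00000377687, at 58.4 to 94.5 TPM in the 7 libraries. Its transcript ENST00000464404, of 130 bases and without a defined coding sequence, took 24.9 TPM from 19 counts in TE5 scramble. In KYSE140 scramble it took 13.2 TPM from 9 counts, so the KLF5 levels in TPM rest in part on few counts. Words of 31 bases that other genes share made up 26.2% in OVOL1, all with an antisense gene that had 0 counts in every library, 8.08% in KLF4 and 2.06% or less in KLF5, GRHL2, GRHL3, TFAP2C and RUNX1.

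Relatives of the 9 were present in these cells. None passed the tests upon TP63 silencing, where 0.978% of all genes fell and 0.272% rose. None passed upon SOX2 silencing, where 0.145% fell and 0.0383% rose. Most differed between the lines, where 32.1% of all genes were called lower and 34.8% higher in TE5. Of 15 other KLF genes, 13 were tested, and edgeR called 0 upon TP63 silencing, 0 upon SOX2 silencing and 0 between them, while 2, 5 and 3 had an unadjusted p below 0.05. At that threshold 1979, 1260 and 2153 of 23511 genes were lower, and 1479, 919 and 2034 were higher. The other KLF genes over 1 TPM in a scramble library were KLF2, KLF3, KLF6, KLF7, KLF8, KLF9, KLF10, KLF11, KLF12, KLF13 and KLF16, from 1.59 TPM (KLF2) to 57.1 TPM (KLF6) in KYSE140. KLF12, a repressor, gave, upon TP63 silencing, log2 fold changes of -0.80 (TE5) and -0.44 (KYSE140), and -0.78 and -0.35 upon SOX2 silencing, and KLF16 had -0.71 and -0.21 and KLF9 -0.60 and -0.08 upon TP63 silencing. KLF7 (0.68 and 0.37) and KLF3 (0.52 and 0.53) were higher upon SOX2 silencing. KLF2, named after its values were seen, since it lies under the count minimum for naming, was higher still, with 1.14 in TE5 and 1.36 in KYSE140 (fit over both lines 1.23, SE 0.26, edgeR adjusted p = 0.235). Between the lines 7 of the 13 were called lower and 2 higher in TE5. GRHL1, the paralog of GRHL2 and GRHL3, was 1.73 TPM in TE5 scramble and 30.3 TPM in KYSE140, and its log2 fold changes upon TP63 silencing were 0.64 and 0.60 (edgeR adjusted p = 0.132). RUNX3 (-0.87 and -0.11) and OVOL2 (-1.16 and -0.01) were lower mainly in TE5 shTP63. Of 8 other genes of the GRHL, TFAP2, OVOL and RUNX families 5 were tested, with 0 called upon either silencing, and all 5 were called lower in TE5 than in KYSE140, where 32.1% of all genes were called lower and 34.8% higher. TFAP2B, TFAP2D and OVOL3 were at most 0.309 TPM in every library. Among 14 cofactors, which include CBFB, the partner of RUNX1, edgeR again called 0 upon either silencing and 0 between them, and 6 and 2 had an unadjusted p under 0.05 upon TP63 and SOX2 silencing, while 7 were called lower and 7 higher in TE5 than in KYSE140. YAP1, which binds TEAD factors, had log2 fold changes of -0.41 and -0.38 upon TP63 silencing and -0.33 and -0.49 upon SOX2 silencing in TE5 and KYSE140. CTBP2, a corepressor, gave -0.80 and -0.31, and KCTD15, an inhibitor of AP-2 factors, -1.01 and 0.09 upon TP63 silencing. FBXW7 gave 0.34 and 0.36 and CTBP1 -0.40 and -0.29 upon SOX2 silencing.

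Among 23 other squamous and epithelial transcription factors, 3 fell and 0 rose upon TP63 silencing over both lines, where 0.978% of all genes fell and 0.272% rose. BNC1, a basal zinc finger factor, fell by 1.15 on the log2 scale (SE 0.18, edgeR adjusted p = 0.0798), PITX1 fell by 0.79 (SE 0.15, edgeR adjusted p = 0.0962) and SNAI2, a basal repressor of differentiation genes, fell by 0.74 (SE 0.13, edgeR adjusted p = 0.0906). These calls are lost under 3 alternatives in which edgeR called no gene at all: with unassigned transcripts kept, without KYSE140 scramble and without TE5 scramble. PRDM1 (1.66 and 0.49 in TE5 and KYSE140) and FOSL1 (-1.09 and -0.67) had large values and were not called. SOX2 silencing called 0 of the 23, with 2 at an unadjusted p under 0.05, and its largest mean changes were in FOSL1 (1.07 and 0.23), ID1 (0.05 and 1.00) and PITX1 (-0.50 and -0.55). At that unadjusted threshold 1260 of 23511 genes fell and 919 rose. Between shTP63 and shSOX2, SNAI2, TP73, BNC1, RARG and FOSL1 were called lower and ELF3 higher, with log2 ratios of -0.88, -1.12, -1.57, -0.67, -1.56 and 0.58, where 2.8% of all genes were called lower and 2.16% higher.

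Targets known for these factors were followed in 3 lists. Of 16 epithelial junction and surface genes, CLDN4, a tight junction claudin, rose upon TP63 silencing by 0.86 on the log2 scale (SE 0.15, edgeR adjusted p = 0.0881), and CDH3, a classical cadherin, was lower in shTP63 than in shSOX2 (log2 ratio -0.63, edgeR adjusted p = 0.0773). Over all genes, edgeR called 0.272% higher upon TP63 silencing and 2.8% lower in shTP63 than in shSOX2. SPINT1 (0.73 and 0.35) and ARHGEF19 (-0.82 and -0.24) followed upon TP63 silencing, and CDH3 (0.44 and 0.64) and PRSS8 (0.66 and 0.27) upon SOX2 silencing, without a call. Of 24 squamous differentiation genes, 22 were tested over both lines, and 1, ABCA12, a lipid transporter of the barrier, rose upon TP63 silencing (log2 fold change 1.56, SE 0.23, edgeR adjusted p = 0.0724). The calls of CLDN4 and ABCA12 are lost under the same 3 alternatives. SOX2 silencing called 0 of the 22, while 7 had an unadjusted p under 0.05, all upwards. At that threshold 919 of 23511 genes rose and 1260 fell upon SOX2 silencing, and 1479 rose and 1979 fell upon TP63 silencing. In KYSE140 shSOX2, the library in which ZNF750 was highest, 11 of 22 were past a log2 fold change of 1 and 1, LOR, past -1, where 6.72% and 6.27% of all genes were, with a median of 1.11 against 0.04 over all genes. Among them SPRR1B, a cornified envelope precursor, had 2438 and 10976 normalized counts (2.17, 2.10 to 2.24), TGM1, the enzyme that crosslinks the envelope, 2818 and 7093 (1.33, 1.26 to 1.40), and DSG1, a suprabasal desmoglein, 142 and 903 (2.66, 2.37 to 2.96). The same list in TE5 shSOX2 had 2 genes past 1 and 2 past -1 of 19, with a median of -0.06. There 6.17% of all genes were past 1 and 4.76% past -1. SPRR1B was the 1 gene of this list called lower in shTP63 than in shSOX2 (log2 ratio -1.82, SE 0.40, edgeR adjusted p = 0.0739). Upon TP63 silencing KRT13 gave -0.12 and -2.11, DSG1 0.76 and 0.07 and FLG -0.68 and -0.06, without a call, and EVPL was 0.25 and 0.59 upon SOX2 silencing. In TE5 shCCAT1, 4 of 20 were past -1 and 1 past 1, with a median of -0.30, where 5.81% and 11.7% of all genes were. Of 8 mesenchymal genes, which OVOL and GRHL factors are known to repress, 0 were called upon either silencing, with 3 and 0 at an unadjusted p under 0.05. TWIST2 (-1.28 and -0.97), VIM (-0.82 and -0.45) and CDH2 (0.03 and 0.76) had the largest values upon TP63 silencing among those with at least 100 counts in each library, and CDH2 had -0.23 and -1.23 upon SOX2 silencing. FN1, named after its values were seen, gave 1.18 and 0.60 upon TP63 silencing (fit 0.96, SE 0.23, edgeR adjusted p = 0.134).

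**Figure D5:**
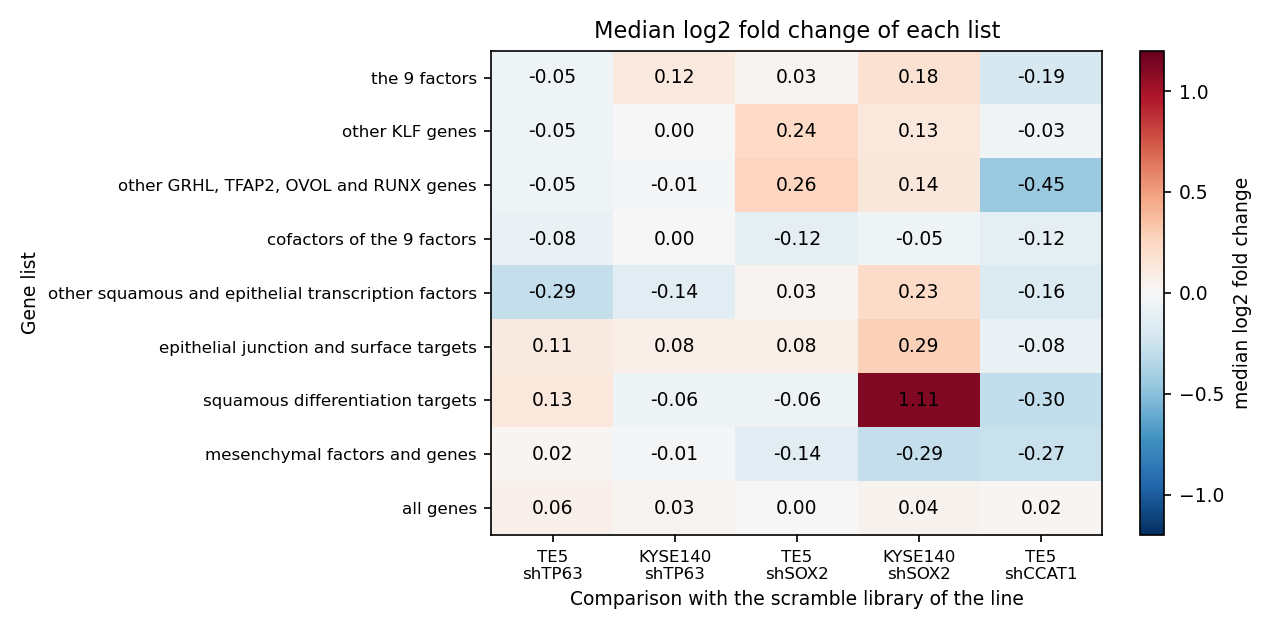
Median log2 fold change of each gene list over the scramble library of its line, with columns by line and shRNA and the median of all genes in the last row. Squamous differentiation targets in KYSE140 shSOX2 have the largest median, 1.11, and the 9 factors lie between -0.19 and 0.18.

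The genes most like each factor were sought among 9543 genes that reached 500 counts in all 7 libraries, by Pearson correlation of log2 normalized counts centred within each line. Over 7 libraries and 2 lines a high correlation is easily reached, the points share their scramble libraries, and no test was made. ZNF750 was most like SIRPA and CABLES2 (both r = 0.996), TFAP2A like GDF11 (0.999) and BTF3 (0.997), and TFAP2C like IER2 (0.997) and BLZF1 (0.993). KLF4 was most like PCED1A (0.992) and GSN (0.990), KLF5 like METTL13 (0.978) and TMEM18 (0.976), OVOL1 like BAZ2A (0.992) and AP5B1 (0.986), GRHL2 like VPS72 (0.995) and VPS50 (0.984), GRHL3 like PI4KB (0.987) and TLE1 (0.979), and RUNX1 like TMTC3 (0.995) and DDX10 (0.989). None of the 9 was among the 2 genes most like another.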

How the data were processed

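RNA of 7 libraries was sequenced as paired-end reads of 100 bases. The authors quantified transcripts with Kallisto against the hg19 Ensembl transcriptome and deposited estimated counts and TPM for each library; the versions of Kallisto and DESeq2 are not given in the sources used here. Transcripts were summed to genes here, and summed counts were rounded. Of 196354 transcripts, 182862 (93.6% of counts) were placed by the reference annotation, 7011 (3.72%) lay in the file between transcripts of 1 gene and took that gene, 298 (0.306%) were placed by matching the gene tables of the study, and 6183 (2.39%) were left out. The neighbour rule was right for 99.68% of 105851 transcripts of known gene, and sums matched for 2768 of 2860 genes of the tables. Those tables were used for placement only, and their fold changes and p-values were not used.

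Genes were fitted with edgeR 4.0.16 in R 4.3.3 (quasi-likelihood test, TMM, line and shRNA as terms, 6 libraries, Benjamini-Hochberg adjustment over 23511 genes, threshold 0.1), and DESeq2 1.42.0 was an alternative. The lines are the only replicates of a silencing. Its p-values rest on how the shRNA effects differed between the lines over all 6 libraries, with 2 residual degrees of freedom. The spread that edgeR used for a gene also draws on that of other genes. For TE5 against KYSE140, the 3 libraries of a line carry different shRNAs and are not independent replicates of it. Those p-values measure how the line difference varied over the shRNAs. Within a line, log2 ratios of TMM-normalized counts used a pseudocount of 1 and genes with at least 10 counts in 1 of 2 libraries, with no test. Intervals cover counting error only. The script was tested on simulated data. The 9 genes and all lists were chosen with earlier results of these data known. Genes named were the 9, relatives over 1 TPM in a scramble library, called genes of a list, the 3 of a list with the largest mean change among those with at least 100 counts in every library, and the 2 most correlated with each factor; SPRR1B counts, TFAP2B, TFAP2D, OVOL3, CBFB, LOR, CDH5, KLF2 and FN1 were named after their values were seen. Strandedness is not given in the sources used here, so reads of overlapping antisense genes cannot be told apart. A listed gene that the naming rule selects is not reported here.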

Additional observations from a re-analysis of the deposited data

Results flagged for a closer look

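For 5 pairs of factor and shRNA the silenced library lay on opposite sides of scramble in TE5 and KYSE140, each with 1 library per condition, and the difference between the lines was not tested. GRHL3 upon TP63 silencing differed most, with log2 fold changes of 0.70 in TE5 and -0.29 in KYSE140, a difference of 0.99. KLF5 gave -0.22 and 0.40 upon TP63 silencing (difference -0.62) and -0.18 and 0.18 upon SOX2 silencing (-0.36). RUNX1 gave -0.09 and 0.26 upon TP63 silencing (-0.35), and GRHL2 -0.05 and 0.12 (-0.17). In TE5 shTP63 the median log2 fold change of genes at a similar level was -0.17 for KLF5 and GRHL2 and -0.16 for RUNX1. GRHL2 and RUNX1 thus lay above that median in TE5, and KLF5 below it. In KYSE140 shTP63 the medians were -0.05 for KLF5 and -0.03 for GRHL2 and RUNX1. The part of this shift in the signs was not tested.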

How the results depend on the processing

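Of 775 alternative values of 90 results, 629 were labelled the same, 14 lost and 19 gained a call, 96 moved and 17 reversed. A fitted log2 fold change was the same if it kept its sign and its call. Within a line, a fold change was the same if it stayed within the counting interval of the main value. A count of factors was the same if it changed little. Causes were not tested unless named. Upon TP63 silencing, 2 of the 9 were called by DESeq2 and 2 without a filter on low counts, against 0, and 0 to 5 with a library left out (5 without KYSE140 shTP63). Upon SOX2 silencing the count was 0 to 1 with a library left out (GRHL3, -1.32, adjusted p = 0.0867 by edgeR, without KYSE140 shSOX2). Between shTP63 and shSOX2 it was 1 with library totals, 1 with reference-assigned transcripts only and 1 with unassigned transcripts kept. The latter pair of settings was chosen after seeing the data. With a library left out, which leaves 1 library of a condition, the count moved both ways. Between the lines it was 7 to 8. Past a log2 fold change of 1, TE5 shTP63 had 2 with library totals, 2 in TPM, 2 with reference-assigned transcripts and 5 at a threshold of 0.58; TE5 shSOX2 had 0 in TPM; TE5 shCCAT1 had 1 with reference-assigned transcripts and 1 at 0.58; KYSE140 shTP63 had 1 at 0.58. Values that reversed when a library was left out ranged, upon TP63 silencing, from -0.15 to 0.32 for KLF5, -0.13 to 0.20 for GRHL2, -0.53 to 0.93 for GRHL3 and -0.11 to 0.27 for RUNX1; upon SOX2 silencing, from -0.11 to 0.32 for KLF4, -0.24 to 0.21 for KLF5, -1.32 to 0.09 for GRHL3, -0.03 to 0.27 for TFAP2A, -0.04 to 0.27 for TFAP2C and -0.07 to 0.28 for OVOL1; and between them from -0.04 to 0.75 for KLF4 and -0.13 to 0.32 for KLF5. With reference-assigned transcripts only, GRHL2 was -0.32 upon TP63 silencing and -0.05 between the lines. Within a line, 14 of 225 alternative values differed in sign. Over all genes, TP63 silencing called 230 lower and 64 higher, 59 and 38 with library totals (median shift 0.138 against 0.042), 1353 and 497 by DESeq2, 944 and 490 unfiltered, 133 and 38 with reference-assigned transcripts, and 0 and 0 with unassigned transcripts kept, where 2049 and 1435 had an unadjusted p under 0.05. SOX2 silencing called 34 and 9, 422 and 207 by DESeq2, and 349 and 141 unfiltered. With a library left out, TP63 silencing called 0 and 0 (without either scramble library) to 1763 and 1156 (without KYSE140 shTP63), and SOX2 silencing 0 and 0 (without either scramble library) to 668 and 403 (without TE5 shTP63). The fit pairs conditions by cell line, which is a term in it. By replicate number, no paired analysis was possible because the groups share only number 1.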
